A study of Mus musculus with 12 samples.

Results

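The comparison described here sets subcortex of mice lacking Reck in vascular cells (vKO) against subcortex of wild-type (WT) mice, across all genes with enough signal to be compared. Of the 23983 entries in the deposited table for this tissue, 13735 were marked by the authors as testable, and 13689 of these reached at least 1 FPKM (fragments scaled to the length of the transcript and to the depth of the library) in WT or in vKO. The RNA-seq series holds 12 libraries of brain tissue from newborn mice (postnatal day 0), in 4 groups of 3 libraries, namely cortex and subcortex of each genotype, and 6 of the libraries enter this comparison. The vKO group carries a Reck flex2 allele over a Reck Δex1 allele together with Tie2Cre, which drives recombination in endothelium and in blood lineages. If the Δex1 allele is present in all cells, vKO and WT also differ in Reck outside these lineages. Such a difference cannot be told apart from loss in vascular cells. The WT group is labelled only as wild type, so the labels do not say whether it carried Tie2Cre or a floxed allele. The strain is given as mixed in both groups, and the labels give neither the sex of the mice nor whether the replicates of a group are separate animals. Total RNA of dissected, flash-frozen tissue was made into stranded libraries.

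Reck is a membrane-anchored glycoprotein that, with the adhesion receptor Gpr124, lets endothelial cells of the central nervous system respond to the neural ligands Wnt7a and Wnt7b. The signal runs through Frizzled receptors, the co-receptors Lrp5 and Lrp6 and beta-catenin. In brain vessels it is known to drive the growth of vessels into the neural tissue and the barrier properties of their endothelium, such as tight junctions and a distinct set of transporters, at the expense of the fenestrated, permeable state seen in other organs.

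Each gene has 1 FPKM value for WT and 1 for vKO, computed by the authors over the 3 libraries of the group, which leaves no spread between replicates to report, and library depth is unknown. The size of a difference is given as log2((vKO FPKM + 1)/(WT FPKM + 1)), called the log2 ratio below, where a positive value means higher in vKO and where adding 1 understates the difference of genes with low values. A gene is called, and is written to have risen or fallen, where the q-value in the authors' deposited table is under 0.05. In whole tissue, fewer cells of a type and less RNA per cell cannot be told apart.

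The dissection was checked by markers. Among WT libraries, 23 of 23 genes of thalamic and midbrain neurons, 12 of 12 hindbrain genes and 14 of 15 genes of hypothalamic neurons were higher in subcortex than in cortex, with median log2 ratios of 2.24, 1.91 and 1.15. All 14 genes of cortical projection neurons were lower in subcortex (median -3.19), and genes of striatal neurons were mixed, with 6 of 16 higher (median -0.48). The tables of the tissues were normalized separately, so these levels are set side by side across tables. Sex-linked genes also differed between the groups. Xist, the RNA that coats the inactive X chromosome of female cells, stood at 0.0369 FPKM in WT against 10.2 in vKO subcortex (log2 ratio 3.43). Eif2s3y and Uty, genes of the Y chromosome, fell from 27.6 to 13.3 and from 10.3 to 6.31 FPKM, while Ddx3y, at 20.0 and 13.4, was not called. Sex composition and genotype therefore cannot be told apart gene by gene in what follows.

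Most genes had nearly the same level in both groups. The median log2 ratio over the 13689 genes was -0.00, the middle 50% lay between -0.11 and 0.11, and the 5th and 95th percentiles were -0.31 and 0.32. By the authors' deposited q-values, 62 genes were called higher in vKO (0.451% of those tested) and 36 lower (0.262%), or 98 in either direction (0.714%). All 98 were among the 13689. The lowest p-value the authors' deposited table lists is 5e-05, and 66 of the 98 calls stand at it with a q-value of 0.0104, so that the calls cannot be ranked by p. At an unadjusted p-value under 0.05 the authors' deposited table holds 479 genes higher (3.49% of those tested) and 388 lower (2.82%). These shares, at the q-value and at the unadjusted p-value, are the background for the counts in gene lists below. The lists were made with earlier results of these data known, so a share above the background is only a description. Genes called higher were mostly of low level, with a median of 3.32 FPKM in WT, and those called lower stood at a median of 27.4, against 10.3 over all 13689 genes. The median log2 ratio was 0.75 among the calls that were higher and -0.93 among those that were lower. At the FPKM minimum, Pi15 was just left out with a highest group value of 0.999883 FPKM, and Gpr126 was just kept with 1.00025.

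**Figure D1:**
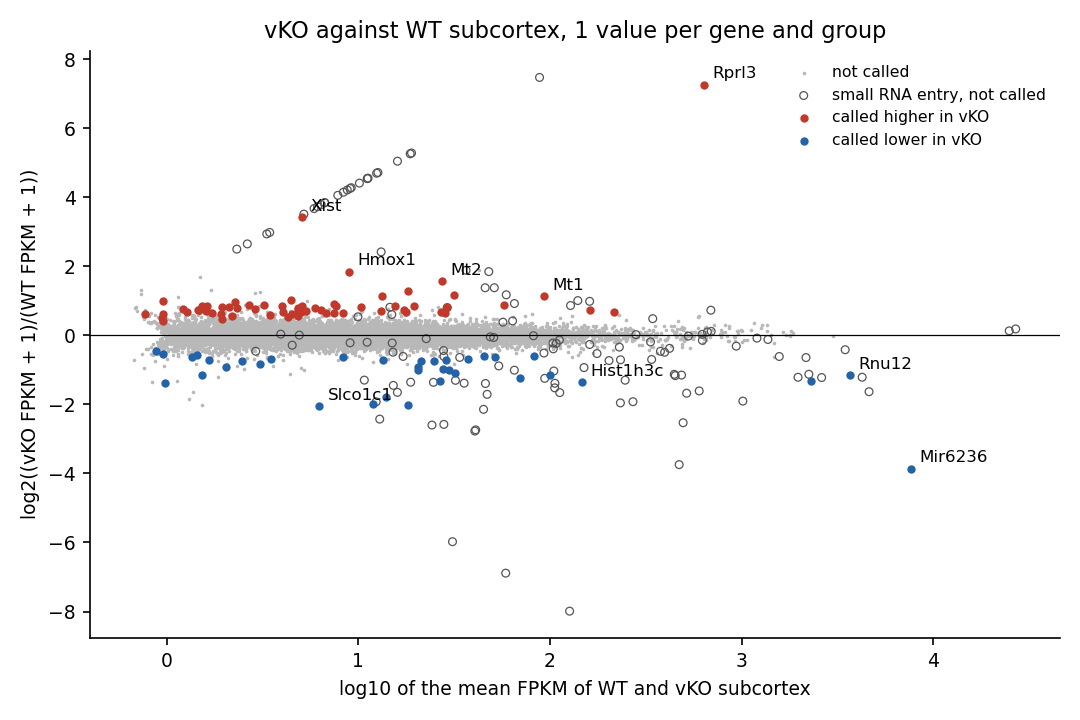
Each point is 1 gene, with the log10 of its mean FPKM over WT and vKO subcortex on the x axis and its log2 ratio of vKO over WT on the y axis, coloured by the authors' call, and small RNA entries drawn as open circles. Most genes lie close to 0, and the widest scatter belongs to small RNA entries, of which 4 are called.

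Without regard to calls, 165 genes were higher and 130 lower by at least 1.5-fold in the log2 ratio. Small RNA entries made up a large share of them, 40 of the higher and 54 of the lower genes, although they were only 135 of the 13689. The WT value was listed as 0 for 25 of these entries and the vKO value for 3, so no fold is given for them. The other entries past 1.5-fold numbered 125 higher and 76 lower. Leaving out small RNAs, predicted gene models, RIKEN clones and sex-linked genes, the 12 largest log2 ratios belonged to Hba-a2, Hmox1, Ass1, Mt2, S100a9, Rsc1a1, Avp, Tmsb15l, S100a8, the joint entry of Amd1 and Amd2, Hist1h2bf and Mt1. Of those, Hmox1, Mt2, Avp, Hist1h2bf and Mt1 were called. The 12 lowest were Slco1c1, Nlrp5-ps, Rpl26, Gapdh, Peg3os, Cdr1, Pet117, the joint entry of Srp54b and Srp54c, Hist1h3c, Xlr3b, Ube2v1 and Fabp4, of which all but Rpl26, Peg3os, Pet117, Xlr3b and Fabp4 were called.

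The targeted gene itself was not lower in the libraries labelled vKO. Reck (chromosome 4, 43875530 to 43944806, mm10) stood at 2.37 FPKM in WT against 3.49 in vKO, a log2 ratio of 0.41, with p = 0.0072 and q = 0.333 in the authors' deposited table. Tie2Cre recombines only some of the cells, and an FPKM sums all exons over all cells of the tissue, so this value does not check the deletion. Its partner Gpr124 stood at 2.69 and 3.17 FPKM (log2 ratio 0.18). The ligand Wnt7a, made by neural cells, stood at 4.38 FPKM in WT against 4.17 in vKO. Wnt7b was at 6.96 and 9.10 FPKM. None of the 11 genes of this receptor complex was called in subcortex, and their median log2 ratio was 0.12, beside -0.00 over all genes. At an unadjusted p-value under 0.05 in the authors' deposited table, Reck, Fzd4, Fzd6 and Wnt7b were higher (4 of 11) and 0 were lower. Over all tested genes the shares were 3.49% and 2.82%. The receptors Fzd4, at 1.22 and 1.96 FPKM, and Fzd6, at 2.57 and 3.47, lay above 0, whereas the tetraspanin Tspan12, which promotes Norrin signalling through Fzd4, went from 14.8 to 12.2 (log2 ratio -0.26). Fzd1, Lrp5, Lrp6 and the Fzd4 ligand Ndp had log2 ratios between -0.04 and 0.12. With genes of at least 5 FPKM only, the median of the complex was -0.02.

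Of 13 genes that beta-catenin signalling is known to switch on, 1 was called (7.69%, beside 0.451% of all tested genes called higher). This was Sox17, a transcription factor of arterial endothelium, which rose from 0.839 to 2.06 FPKM (log2 ratio 0.74). Fgfbp1, a secreted carrier of fibroblast growth factors, had the next highest log2 ratio, 0.59, at 5.09 and 8.16 FPKM, without a call. Sox17 and Fgfbp1 were higher and Notum was lower (2 and 1 of 13) by unadjusted p-values under 0.05 in the authors' deposited table. No feedback target of the pathway was called. Axin2, which helps to degrade beta-catenin, had 9.99 FPKM in WT and 10.3 in vKO, the transcription factor Lef1 5.85 and 5.31, and the membrane inhibitor Nkd1 6.49 and 5.74. Apcdd1, an inhibitor found in barrier endothelium, stood at 21.6 and 17.6 FPKM. Notum, a secreted enzyme that inactivates Wnt ligands, had the lowest log2 ratio of the list, -0.95, at 1.32 FPKM in WT and 0.202 in vKO, with q = 0.0843 in the authors' deposited table. The list's median was 0.01.

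Transporters of the barrier held the largest fall of any gene outside the small RNAs. Slco1c1 (chromosome 6, 141524368 to 141570177), which carries thyroxine and organic anions across brain endothelium, fell from 10.7 to 1.82 FPKM, a log2 ratio of -2.05. Slc22a8, an organic anion transporter (chromosome 19, 8591254 to 8611835), fell from 2.97 to 1.09 FPKM (-0.93). Slc38a5, a glutamine and neutral amino acid transporter (chromosome X, 8271133 to 8280179), fell from 4.21 to 1.94 FPKM (-0.82), with q = 0.0323 in the authors' deposited table. Each of these 3 is known from barrier endothelium. A neighbour of Slc22a8 on chromosome 19, the organic anion transporter Slc22a6, which the fixed lists hold among meningeal fibroblast genes, fell from 1.91 to 0.966 FPKM (-0.56). All 4 genes also fell in cortex, with log2 ratios of -0.99 for Slco1c1, -1.22 for Slc22a8, -2.20 for Slc38a5 and -0.64 for Slc22a6. They were grouped after their values were seen.

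The window around the start of Slco1c1, the member with the largest fall, is shown with the matches to the core recognised by TCF/LEF factors, through which beta-catenin acts, in capitals (CTTTGA or CTTTGT on either strand). The sequence is from RefSeq (GRCm38.p6, which has the coordinates of mm10) and spans 250 bases before to 50 after the start, chr6:141524104-141524403 on the + strand.
Slco1c1: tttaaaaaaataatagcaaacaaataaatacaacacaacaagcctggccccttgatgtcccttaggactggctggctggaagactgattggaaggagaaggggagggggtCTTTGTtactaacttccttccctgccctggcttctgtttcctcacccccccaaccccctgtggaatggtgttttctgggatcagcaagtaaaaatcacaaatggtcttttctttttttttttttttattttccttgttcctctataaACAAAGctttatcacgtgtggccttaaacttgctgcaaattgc
It holds 2 matches, 1 on each strand. Of the 32851 windows of this kind, 31.2% hold at least 1 match and 6.68% at least 2. The windows of Slc22a8 and Slc22a6 hold 1 each and that of Slc38a5 holds none. A match of letters is a description and shows no binding.

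The barrier list as a whole was centred on 0. Of its 27 genes 3 fell and 1 rose, or 11.1% and 3.70% of the list, beside 0.262% and 0.451% of all tested genes, and the median log2 ratio was -0.01. The 1 that rose was Slc2a1, the glucose transporter of the barrier (chromosome 4, 119108711 to 119137983), from 12.8 to 21.9 FPKM (0.73), a gene that hypoxia also induces. Cldn5, a tight junction claudin of brain endothelium, had the second highest WT FPKM of the list after Spock2 and stood at 42.1 FPKM in WT against 37.6 in vKO (-0.16). The lipid transporter Mfsd2a, which restrains transcytosis, stood at 9.85 and 7.97 (-0.28), and the transferrin receptor Tfrc at 22.5 and 18.6 (-0.26). The arginine transporter Slc7a1 was at 7.44 and 7.98 FPKM, and the efflux pumps Abcb1a and Abcg2 were at 2.59 and 2.85 and at 10.4 and 12.8. None of these 6 was called in subcortex, while Cldn5, Mfsd2a, Tfrc and Slc7a1 fell in cortex, with log2 ratios of -0.90, -0.72, -0.56 and -1.03. Whether the tissues differ cannot be tested with 1 value per group.

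Genes of endothelial cells in general lay mostly above 0. Of 22 pan-endothelial genes 19 had log2 ratios above 0 and 3 below, with a median of 0.31, and 2 were called, both higher (9.09%, beside 0.451% of all tested genes). At an unadjusted p-value under 0.05 in the authors' deposited table, 10 of the 22 were higher and 0 lower, beside 3.49% and 2.82% of all tested genes. Pecam1, an adhesion molecule of all endothelium (chromosome 11, 106654217 to 106750628), rose from 5.12 to 10.1 FPKM (0.86), and Cdh5, the cadherin of endothelial junctions (chromosome 8, 104101625 to 104144511), from 3.62 to 6.45 (0.69). The VEGF receptor Kdr was close to its WT level, at 6.42 and 6.75 FPKM, and Flt1 stood at 2.47 and 2.16. The 3 genes below 0 were Cldn5, Flt1 and the transcription factor Erg, the last at 1.52 and 1.39 FPKM. Genes of fenestrated and peripheral endothelium lay above 0 in 10 of 10 cases, with a median of 0.45, and 1 was called, while 6 of the 10 were higher at an unadjusted p-value under 0.05 in the authors' deposited table. The 1 called was Igfbp3, an IGF-binding protein (chromosome 11, 7206086 to 7213923), from 7.97 to 18.6 FPKM (1.13). Plvap, the protein of fenestral diaphragms, stood at 2.15 FPKM in WT against 3.69 in vKO (0.57) with q = 0.245 in the authors' deposited table, and Cd34 at 7.64 and 11.9 (0.58) with q = 0.116 there. Further calls among genes known from endothelium were found outside these lists and grouped after their values were seen. Podxl, a sialomucin of the luminal surface, rose from 3.32 to 5.65 FPKM. The vasoconstrictor peptide gene Edn1 rose from 0.649 to 1.78 and Entpd1, an enzyme that breaks down extracellular ATP, from 2.57 to 4.36. Among tip cell genes, Apln, a peptide of sprouting endothelium, stood at 2.28 FPKM in WT against 1.16 in vKO (-0.60), with q = 0.0843 in the authors' deposited table, and the 1 call of 11 was Mcam, described with the mural genes.

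**Figure D2:**
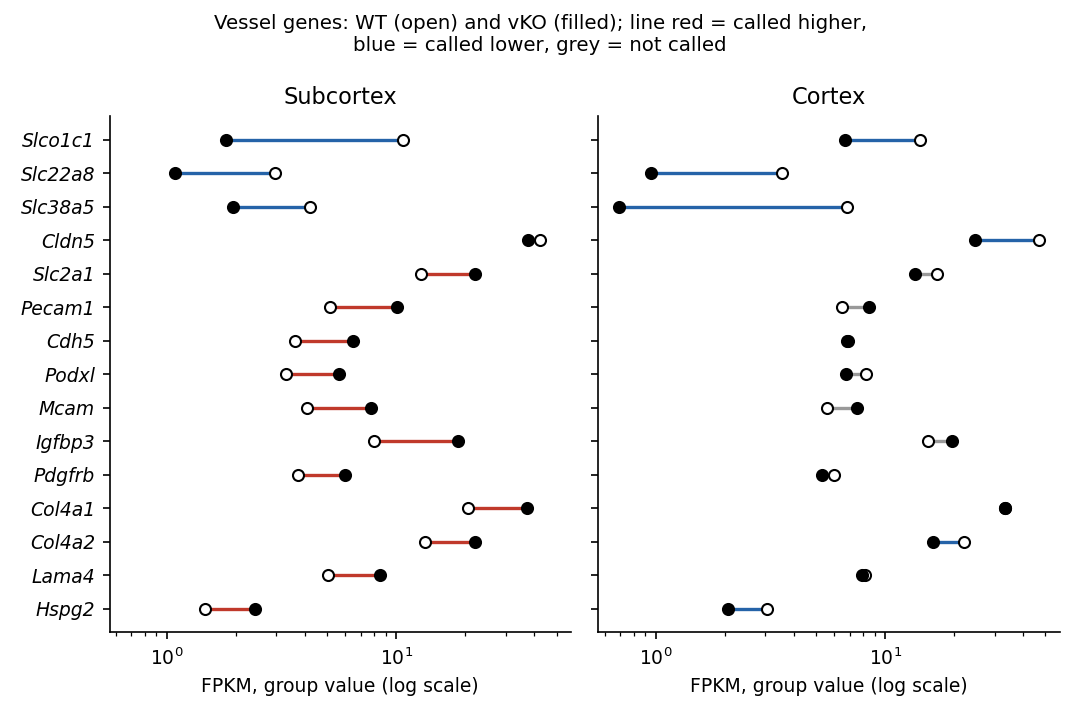
FPKM of 15 vessel genes on a log scale in subcortex (left) and cortex (right), with WT as open and vKO as filled circles and lines coloured by the authors' call in that tissue. In subcortex Slco1c1, Slc22a8 and Slc38a5 are lower in vKO, Cldn5 is not called, and the other 11 genes are called higher. None of those 11 is called higher in cortex, but the 15 genes are a selection. Acta2 and Entpd1, which are not drawn, were called higher in both tissues. Of the full lists, 5 fenestrated and 4 pan-endothelial genes were called higher in cortex, and 1 and 7 lower.

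Genes of the vascular basement membrane lay above 0 throughout. All 14 members had log2 ratios above 0, from 0.10 to 0.82, with a median of 0.42, and 4 of the 14 rose (28.6%, beside 0.451% of all tested genes). By unadjusted p-values under 0.05 in the authors' deposited table, 9 of the 14 were higher and 0 lower. Col4a1 and Col4a2 encode the chains of the main collagen IV network. Col4a1 rose from 20.6 to 37.2 FPKM (0.82), and Col4a2 from 13.4 to 22.1 (0.69) with q = 0.0264 in the authors' deposited table. Lama4, a laminin chain typical of endothelium (chromosome 10, 38965515 to 39110188), rose from 5.05 to 8.48 FPKM (0.65), and Hspg2, which encodes perlecan (chromosome 4, 137468769 to 137570630), from 1.47 to 2.42 (0.47). Members that were not called included Nid1, which links laminin to collagen IV, at 10.1 and 15.1 FPKM, the laminin chain Lamc1 at 7.57 and 10.8, fibronectin Fn1 at 7.44 and 8.18, and Agrn at 48.5 and 52.1. In cortex the same 14 genes had a median of -0.39, and 7 of them fell, Col4a2 and Hspg2 among them. Ratios in cortex fell with transcript length, to a median of -0.36 in the decile of the longest transcripts. Lama4, Col4a2, Col4a1, Agrn and Hspg2 have transcripts of 6046 to 14187 bases, against a median of 3178 over all genes. The part of length in the cortex values of this list was not tested. The median GC content of the 14 transcripts was 54.2%, against 50.2% over all genes, and ratios in subcortex rose with GC content, as described further on. Subtracting that trend changed the list's median by less than 0.1.

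The windows around the starts of Col4a1 and Col4a2, the pair with the highest FPKM among the 4 basement membrane genes that rose, overlap, and both are shown. Col4a1 lies on the - strand of chromosome 8 from 11198423 to 11312826, and Col4a2 on the + strand from 11312805 to 11449287, so that their starts are 21 bases apart on opposite strands. The RefSeq windows (GRCm38.p6, 250 bases before to 50 after each start) are chr8:11312777-11313076 (- strand) and chr8:11312555-11312854 (+ strand) and share 78 bases. Capitals mark the GC box (GGGCGG, both strands) and the CCAAT box (CCAAT, both strands).
Col4a1: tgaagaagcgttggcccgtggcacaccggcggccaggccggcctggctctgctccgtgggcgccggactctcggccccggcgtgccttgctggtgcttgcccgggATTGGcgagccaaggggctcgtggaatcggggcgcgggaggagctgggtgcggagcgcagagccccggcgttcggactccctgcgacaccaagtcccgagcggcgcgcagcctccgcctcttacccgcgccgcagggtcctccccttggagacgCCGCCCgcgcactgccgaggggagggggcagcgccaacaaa
Col4a2: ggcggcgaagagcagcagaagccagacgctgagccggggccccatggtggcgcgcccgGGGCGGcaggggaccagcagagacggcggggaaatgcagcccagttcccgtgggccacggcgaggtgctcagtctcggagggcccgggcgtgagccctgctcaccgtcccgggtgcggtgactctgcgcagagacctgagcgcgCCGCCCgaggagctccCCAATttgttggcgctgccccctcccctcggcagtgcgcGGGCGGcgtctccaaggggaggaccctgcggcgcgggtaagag
The Col4a1 window holds 1 GC box and 1 CCAAT box, and the Col4a2 window 3 and 1. The GC box of the Col4a1 window lies in the shared bases and is also 1 of the 3 of the Col4a2 window, read on the other strand. At least 1 GC box occurs in 35.7% and at least 3 in 10.7% of the 32851 windows, and at least 1 CCAAT box in 37.4%. The sequence is 74.0% G or C in the Col4a1 window. No source used here says whether the authors' counting used the strand.

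Other matrix genes were called outside the basement membrane list, and were grouped after their values were seen. Among collagens, Col18a1, the source of endostatin, rose from 3.83 to 6.89 FPKM (0.71) and Col4a5 from 3.32 to 5.27 (0.54), while Col4a6, which lies beside Col4a5 on chromosome X in the opposite direction, fell from 1.18 to 0.580 (-0.47). Of the 30 collagen genes tested, 4 rose (13.3%) and 1 fell (3.33%), beside 0.451% and 0.262% of all tested genes. The 4 include Col4a1 and Col4a2, already counted in the basement membrane list, and the collagen list was chosen after values were seen. Over the 29 collagen genes that reached 1 FPKM the median was 0.16. Eln, which encodes elastin of arterial walls, rose from 6.28 to 10.4 FPKM, with q = 0.0491 in the authors' deposited table, and Fbln5, needed to assemble elastic fibres, from 0.747 to 1.80. None of the 9 called matrix genes was called higher in cortex, where Fbln5 was not tested, and 3 of them fell there (Col4a2, Hspg2 and Col4a6). These 3 have transcripts of 6450 to 14187 bases, and ratios in cortex fell with transcript length.

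Mural cells, the pericytes and smooth muscle cells that wrap the vessels, showed 3 calls, all higher. They were 2 of 13 pericyte genes (15.4%) and 1 of 4 smooth muscle genes (25%), beside 0.451% of all tested genes. Mcam, a surface glycoprotein of pericytes and endothelium (chromosome 9, 44134469 to 44142727), rose from 4.09 to 7.77 FPKM (0.78). Pdgfrb, the receptor through which endothelial cells recruit pericytes, rose from 3.73 to 5.96 (0.56), with q = 0.0323 in the authors' deposited table. Acta2, the actin of smooth muscle (chromosome 19, 34241090 to 34255590), rose from 1.14 to 2.77 (0.82), and Tagln, another contractile protein, stood at 1.63 and 3.24 without a call. Pericyte markers of higher FPKM were not called, with Vtn at 25.1 and 34.3 FPKM (0.44) and Rgs5 at 27.9 and 25.8 (-0.11). Of the pericyte genes 5 were higher and 0 lower by unadjusted p-values under 0.05 in the authors' deposited table, beside 3.49% and 2.82% of all tested genes. The medians were 0.21 over 13 pericyte genes and 0.43 over 4 smooth muscle genes. Pdgfb, the ligand from endothelial cells, stood at 6.57 FPKM in WT against 5.95 in vKO.

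**Figure D3:**
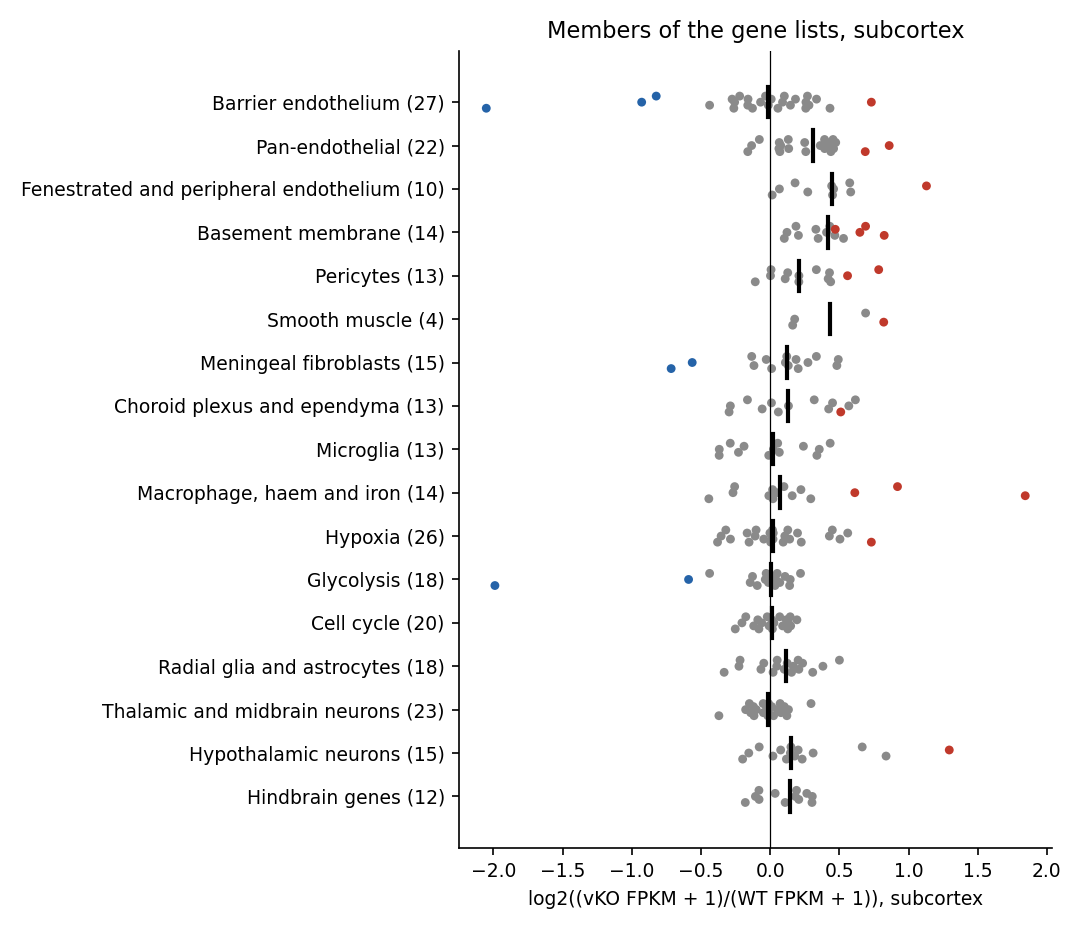
Log2 ratios of vKO over WT subcortex for the members of 17 gene lists with at least 1 FPKM in a group (number in brackets), with red points called higher, blue points called lower, grey points not called, and a black bar at the list's median. Basement membrane and fenestrated endothelial genes lie to the right of 0 in all cases, and barrier genes spread to both sides around a median of -0.01.

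The size of these medians depended on the value added before taking logs. With 5 FPKM added in place of 1, the median was 0.14 for pan-endothelial, 0.24 for fenestrated, 0.23 for basement membrane and 0.23 for smooth muscle genes. With 0.1 added, it was 0.33 for pericyte genes.

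Haem oxygenase and a few macrophage genes rose, and no microglial gene was called. Hmox1, the enzyme that degrades haem (chromosome 8, 75093621 to 75100589), rose from 3.32 to 14.5 FPKM (1.84), and in cortex from 2.04 to 59.7. Lyz2, the lysozyme of myeloid cells, which has 1 near-identical copy, rose from 4.86 to 10.1 FPKM (0.92), and Cd163, the receptor by which macrophages take up haemoglobin bound to haptoglobin, from 0.404 to 1.15 (0.61). These 3 were the calls among 14 genes of macrophages, haem and iron (21.4%, beside 0.451% of all tested genes), whose median was 0.07. The phagocyte genes Cd68, at 3.33 and 2.59 FPKM, and Spp1, at 7.70 and 5.40, lay below 0, and the ferritin genes Fth1 and Ftl1 were near 0, at 301 and 305 and at 763.9 and 818.5 FPKM. Of 16 microglial genes 13 were tested. None of these 13 was called by Cuffdiff's q-values, 1 was higher at an unadjusted p-value under 0.05 in the authors' deposited table, and their median was 0.02. Summed over all 16 genes, untested ones included, the FPKM was 106.0 in WT and 146.0 in vKO, and 81.2 and 181.0 in cortex. Examples from the list were C1qa, a complement chain, at 14.6 and 20.1 FPKM, Tyrobp at 16.3 and 17.1 and P2ry12, a receptor of resting microglia, at 4.16 and 2.996.

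Globin and other erythroid genes, which mark red blood cells in the tissue, had no call, and 0 of 8 had an unadjusted p under 0.05 in the authors' deposited table. The entry shared by Hbb-b1 and Hbb-bs stood at 402.6 FPKM in WT against 482.2 in vKO (0.26), and Alas2, which starts haem synthesis in red cell precursors, at 5.30 and 6.60. Leaving out small RNAs, predicted gene models, RIKEN clones and sex-linked genes, Hba-a2 had the highest log2 ratio, 1.91, at 17.5 and 68.2 FPKM, yet q = 0.999 in the authors' deposited table. The joint entry of Hba-a1 and Hba-a2 went the other way, from 98.9 to 74.5 FPKM, and these entries share near-identical sequence. The summed FPKM over the erythroid list was 653.4 in WT and 778.9 in vKO, against 386.1 and 6087 in cortex. The neutrophil genes S100a8 and S100a9 stood at 1.32 and 4.47 and at 0.541 and 2.86 FPKM, neither of them called, and 7 further neutrophil genes stayed below 1 FPKM in both groups.

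Metallothioneins, which bind zinc and copper and are induced by metals and by glucocorticoids, rose in both tissues. Mt1 (chromosome 8, 94179082 to 94180327) rose from 57.5 to 127.7 FPKM (1.14) and Mt2 (chromosome 8, 94172664 to 94173568) from 13.2 to 41.3 (1.58). In cortex they rose from 30.5 to 131.8 and from 11.8 to 63.3 FPKM. Mt3, the form typical of brain, had a log2 ratio of 0.01 in subcortex. The windows around the starts of Mt1 and Mt2 are shown because the genes neighbour each other and rose together. They come from RefSeq (GRCm38.p6), at chr8:94178839-94179138 and chr8:94172368-94172667, both on the + strand, and capitals mark the core of the metal response element (TGCACNC or TGCGCNC, both strands).
Mt1: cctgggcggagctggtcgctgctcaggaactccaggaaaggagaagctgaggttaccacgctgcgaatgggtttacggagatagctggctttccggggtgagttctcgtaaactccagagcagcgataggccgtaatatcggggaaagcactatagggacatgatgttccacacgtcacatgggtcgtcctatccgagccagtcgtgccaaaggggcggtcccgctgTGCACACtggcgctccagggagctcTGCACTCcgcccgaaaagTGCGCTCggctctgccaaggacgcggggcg
Mt2: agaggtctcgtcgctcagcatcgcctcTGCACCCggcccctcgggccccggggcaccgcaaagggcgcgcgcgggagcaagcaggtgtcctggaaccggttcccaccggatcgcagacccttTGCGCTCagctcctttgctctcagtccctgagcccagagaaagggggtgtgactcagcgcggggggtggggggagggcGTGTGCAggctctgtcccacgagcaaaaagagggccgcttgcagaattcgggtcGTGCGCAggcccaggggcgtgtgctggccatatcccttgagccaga
The Mt1 window holds 3 cores, all on the strand of the gene, and that of Mt2 holds 4, of which 2 lie on each strand. At least 1 core occurs in 25.7% of the 32851 windows, at least 3 in 1.97% and at least 4 in 0.517%. The Mt3 window holds 1.

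Another 10 calls belonged to genes known for stress, glucocorticoid or injury responses. All were higher, but they were grouped from the calls after their values were seen, so their shared direction is no result. The small heat shock protein Hspb1 rose from 2.60 to 6.32 FPKM (1.02) and was the 1 call of 11 heat shock genes, whose median was -0.08. Nqo1, a target of the oxidative stress factor NRF2, rose from 3.26 to 6.38 FPKM. Genes that glucocorticoids induce included Txnip, which rose from 20.6 to 33.3 FPKM, Fam107a, from 1.98 to 4.44, Zbtb16, from 1.59 to 2.79, and Pdk4, from 0.544 to 1.36. Serpina3n, a protease inhibitor of reactive astrocytes, rose from 1.23 to 3.32 FPKM (0.96), the lipid carrier Apod from 21.8 to 34.9, Emp1 from 7.17 to 13.4, and Ctgf, a matricellular target of YAP, from 2.89 to 5.18. Of the 10, 6 also rose in cortex, where Serpina3n was not tested, and Zbtb16 fell there. The integrated stress response list had 0 calls among 13 genes in the authors' deposited table, with 1 higher and 1 lower at an unadjusted p-value under 0.05, and a median of 0.01.

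Hypoxia, glycolysis and cell cycle lists had medians near 0. Of 26 hypoxia genes 1 was called, Slc2a1 (3.85%, beside 0.451% of all tested genes called higher), and the median was 0.02. Of the 26, 5 were higher and 3 lower by unadjusted p-values under 0.05 in the authors' deposited table. Vegfa, the vessel growth factor that HIF induces, was among the lower ones, at 24.6 and 19.0 FPKM (-0.35), and Lox, a collagen cross-linking enzyme, among the higher, at 1.27 and 2.21 (0.50). Bnip3, a mitochondrial protein that HIF induces, stood at 33.7 and 34.2 FPKM in subcortex, while in cortex it rose from 16.8 to 41.5. Epas1, which encodes the HIF factor of endothelium, stood at 2.59 and 4.29 FPKM (0.56) with q = 0.0544 in the authors' deposited table. Over 18 glycolysis genes the median was 0.00 and 2 were called lower, Gapdh and Pgam1 (11.1%, beside 0.262% of all tested genes). Aldoa, at 313.8 and 321.5 FPKM, and Pkm, at 229.4 and 214.9, were not called. The lactate transporter Slc16a1, at 9.15 and 6.49 FPKM, was the 1 further glycolysis gene that was lower at an unadjusted p-value under 0.05 in the authors' deposited table. None of 20 cell cycle genes was called, 0 had an unadjusted p-value under 0.05 in the authors' deposited table, and their median was 0.01.

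Choroid plexus genes and genes of the meninges were called in both directions. The choroid plexus secretes cerebrospinal fluid, and its list of 13 had 1 call, the bicarbonate transporter Slc4a5, from 0.602 to 1.28 FPKM, with q = 0.0491 in the authors' deposited table. That is 7.69% of the list, beside 0.451% of all tested genes called higher. Ttr, the thyroxine carrier that marks this tissue, stood at 484.4 FPKM in WT against 718.7 in vKO (0.57) with q = 0.267 there, and Clic6 at 2.71 and 4.68 with q = 0.0544 in the authors' deposited table. The list held 5 genes higher and 0 lower by unadjusted p-values under 0.05 in the authors' deposited table, these 3 and the water channel Aqp1, at 3.16 and 4.68 FPKM, and Enpp2, at 20.8 and 28.3. Over all tested genes the shares were 3.49% and 2.82%. The ciliary factor Foxj1 and the choroid gene Kcnj13 stood at 8.36 and 8.75 and at 5.10 and 3.96 FPKM. Summed over the list the FPKM was 552.4 in WT and 798.9 in vKO, most of it Ttr, and 551.2 and 525.9 in cortex. Genes named after their values were seen were Cldn1, a claudin of barrier epithelia, which rose from 1.58 to 3.79 FPKM (0.89), Wfikkn2, from 1.89 to 3.92, and the proline transporter Slc6a20a, from 4.55 to 8.29. Crabp2, a carrier of retinoic acid in meningeal fibroblasts, fell from 17.0 to 9.94 FPKM (-0.72), with q = 0.0443 in the authors' deposited table. The other meningeal genes, such as Dcn at 12.4 and 17.8 FPKM and Igf2 at 33.3 and 32.7, were not called, except Slc22a6, and the median of the list was 0.12. The 2 that fell were 13.3% of the 15 meningeal genes, beside 0.262% of all tested genes. The part of dissected choroid plexus and meninges in these values was not tested.

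Most genes of regional neurons kept close to their WT levels, with some hypothalamic genes higher. None of 23 genes of thalamic and midbrain neurons was called, and their log2 ratios ran from -0.37 to 0.30 with a median of -0.02. Tcf7l2, a transcription factor of the thalamus, stood at 37.0 and 33.2 FPKM, and the glutamate transporter Slc17a6 of subcortical excitatory neurons at 78.4 and 69.2. None of 12 hindbrain genes, 18 radial glia and astrocyte genes, 14 oligodendrocyte genes or 13 striatal genes was called, with medians of 0.14, 0.11, 0.16 and 0.08. At an unadjusted p-value under 0.05 in the authors' deposited table, 4 oligodendrocyte genes were higher, 2 radial glia genes were higher and 1 lower, and 1 thalamic gene was lower. Of 15 hypothalamic genes 1 was called, or 6.25% of the 16 tested, beside 0.451% of all tested genes called higher. Avp, the precursor of vasopressin (chromosome 2, 130580620 to 130582554), rose from 10.1 to 26.3 FPKM (1.29), and it has 1 near-identical copy. The peptide genes Oxt, the precursor of oxytocin, at 1.13 and 2.38 FPKM, and Trh, at 1.89 and 4.17, were not called, and Pmch, of the lateral hypothalamus, was at 13.7 and 15.3. The list's median was 0.15, with 12 of the 15 genes above 0 and 3 at least 1.5-fold higher. At an unadjusted p-value under 0.05 in the authors' deposited table, 2 of the 16 tested members were higher and 0 lower. Named after their values were seen, Glra2, a fetal glycine receptor subunit, fell from 37.1 to 18.4 FPKM (-0.98) and Cdr1, an X-linked neuronal transcript, from 22.2 to 5.75 (-1.78), and both fell in cortex as well.

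Several calls, most of them lower, were of genes with near-identical copies in the genome. Of the 34 genes called lower that have an annotated transcript, 18 had at least 1 near-identical copy (at least 90% identity) elsewhere and 9 had at least 5, against 10 and 3 of the 62 genes called higher, so the assignment of reads to them is uncertain. Copies were sought only for called and named genes, so no share over all tested genes is given, and the genes called lower also had shorter transcripts. Gapdh, a glycolytic enzyme with 177 copies, fell from 19.6 to 4.18 FPKM in subcortex but rose from 2.69 to 29.3 in cortex. The ribosomal protein genes Rpl21, with 80 copies, and Rpl17, with 56, fell from 27.2 to 13.8 and from 40.1 to 19.5 FPKM, while over 75 ribosomal protein genes the median was -0.02. Hprt, a purine salvage enzyme for which no copy was found, fell from 44.0 to 20.1 FPKM, the mitochondrial pyruvate carrier Mpc1 from 98.3 to 41.5, and Ube2v1, a partner of ubiquitin-conjugating enzymes, from 38.4 to 14.7. Gapdh, Rpl21, Rpl17, Hprt, Mpc1 and Ube2v1 belong to 13 calls grouped as housekeeping genes after their values were seen, from calls that were lower, so their shared direction is no result. Of the 6 called histone genes, Hist1h1c, Hist1h2ac, Hist1h2bc and Hist1h2bf rose, the last from 18.9 to 44.1 FPKM, while Hist1h3c fell from 211.8 to 82.2 and Hist1h3d from 137.7 to 61.3. All 6 rose in cortex, and the core histone genes have 7 to 18 copies. Among small RNAs, Mir6236 fell from 14379 to 990 FPKM and the minor spliceosome RNAs Rnu11 and Rnu12 from 3280 to 1300 and from 5088 to 2289, while Rprl3, an RNase P RNA-like entry, rose from 7.27 to 1268.

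Lists for other processes had no call. Reck was first known as an inhibitor of matrix metalloproteinases, and none of 11 protease and inhibitor genes was called, with a median of 0.14. Timp3, an inhibitor held in the matrix, stood at 16.4 and 25.3 FPKM (0.60), and Mmp16, a membrane-bound protease, at 27.7 and 24.7. None of 14 genes of TGF-beta and integrin signalling and none of 14 Notch genes was called, with medians of 0.10 and 0.11. Of the TGF-beta genes 4 were higher and 0 lower by unadjusted p-values under 0.05 in the authors' deposited table, and 0 Notch genes passed. In the first of these lists Acvrl1, an endothelial receptor of the pathway, stood at 2.10 and 3.30 FPKM (0.47) and Id3, a target, at 32.6 and 43.6 (0.41). Interferon and inflammation genes (6 genes, median 0.13) and immediate early genes (7 genes, median 0.20) had no call either, with Jun at 12.2 and 17.3 FPKM. In each of these lists 2 genes were higher and 0 lower at an unadjusted p-value under 0.05 in the authors' deposited table. No gene was called either among intermediate progenitors (median 0.12), cortical projection neurons (-0.09), inhibitory neurons (0.06), monoamine and cholinergic neurons (-0.02) or olfactory bulb and retina (0.12), nor was the 1 pituitary gene that reached 1 FPKM, Pomc, at 1.88 and 2.32.

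Of the 98 calls, 28 belonged to at least 1 of the 38 gene lists and 70 to none. Besides the groups above, 25 calls, 17 higher and 8 lower, fitted no role group. They included Cyp1b1, a retinoid and steroid-metabolising enzyme that rose from 1.26 to 2.99 FPKM, the metalloproteinase Mmp28, from 0.882 to 2.37, the proline dehydrogenase Prodh, from 2.56 to 5.44, and Itih5, a hyaluronan-binding protein, from 3.37 to 6.80. Ly75, a lectin-like receptor of antigen-presenting cells, fell from 1.32 to 0.605 FPKM and the membrane protein gene Shisa3 from 4.55 to 2.48. Nlrp5-ps, a pseudogene, fell from 29.9 to 6.59 FPKM (-2.02). These were named after their values were seen, except Nlrp5-ps.

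Set beside cortex, the subcortex comparison held far fewer calls. In cortex 1108 of 13594 tested genes (8.15%) were called higher and 1537 (11.3%) lower. The interquartile range of the log2 ratios was 0.22 in subcortex and 0.44 in cortex. Of the 98 subcortex calls 89 were tested in cortex and 45 of them were called there, which is 50.6% of those 89 and 1.77% of the 2549 cortex calls tested in both. Of the 13170 genes tested in both tissues, 19.4% were called in cortex. The direction was shared for 35 of the 45, 23 higher and 12 lower, and opposite for 10. Lower in subcortex and higher in cortex were Gapdh, Rpl17, Rpl21, Mrps33, Hist1h3c, Hist1h3d and Mir6236, all but Mir6236 genes with near-identical copies. Higher in subcortex and lower in cortex were Hspg2, Col4a2 and Zbtb16. Across the 13118 genes that reached 1 FPKM in both tissues, the ratios had a Pearson correlation of 0.07 and a Spearman correlation of 0.06, over genes of the same 4 groups of libraries, which are not independent replicates. The labels do not say whether the cortex and the subcortex of a number come from the same brain. The role groups were formed from subcortex calls after their values were seen, so their agreement with cortex is only a description. The transporters that fell, the haem and macrophage genes and the metallothioneins were called in the same direction in cortex in 4 of 4, 3 of 3 and 2 of 2 cases. Of the 11 vessel cell genes that rose in subcortex 2 rose in cortex and 9 were not called there, Edn1 among these because it was not tested. Of the 10 genes of stress, glucocorticoid or injury responses 6 rose in cortex, 1 fell and 3 were not called. All 6 called histone genes rose in cortex, although 2 of them fell in subcortex.

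**Figure D4:**
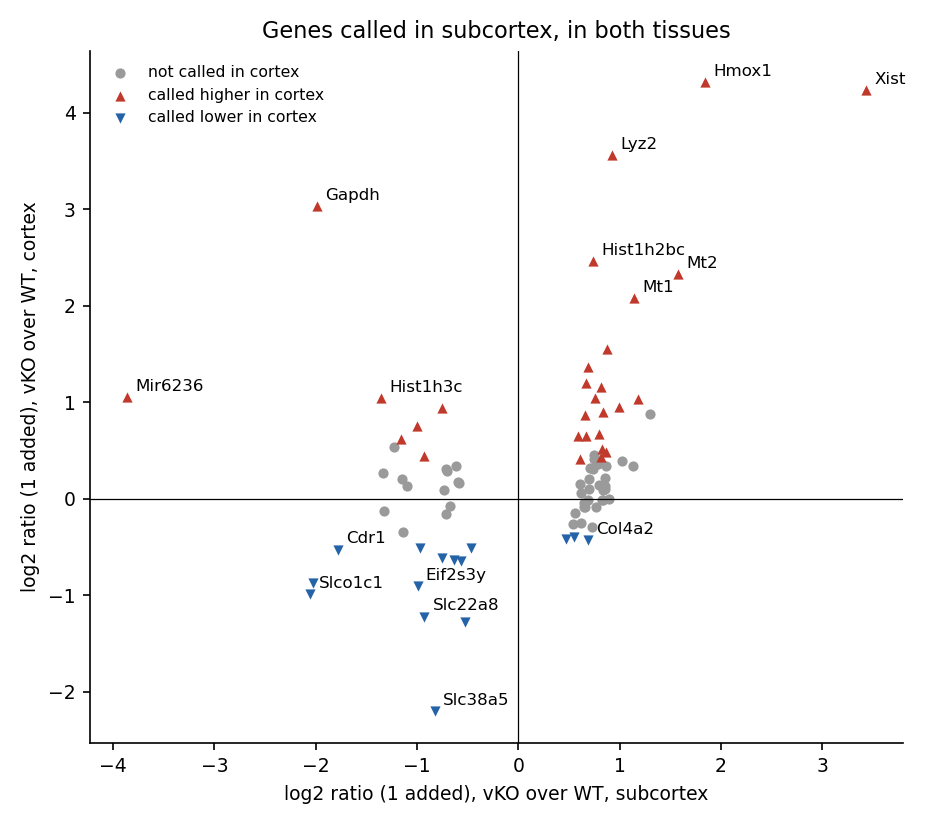
Log2 ratio of vKO over WT in subcortex (x axis) and in cortex (y axis) for the genes called in subcortex and tested in cortex, with the marker showing the authors' call in cortex; Rprl3, at 7.26 and 6.46, lies outside the axes. Hmox1, Lyz2, Mt1 and Mt2 are high in both tissues, Slco1c1, Slc22a8 and Slc38a5 are low in both, and Gapdh and Mir6236 are low in subcortex and high in cortex.

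The ratios moved with base composition in subcortex and with transcript length in cortex. Across 12982 genes with an annotated transcript, the Spearman correlation of the subcortex log2 ratio was 0.32 with GC content and 0.02 with length, while for cortex it was 0.00 and -0.58. The median subcortex ratio ran from -0.12 in the decile of genes with the lowest GC content to 0.08 in the highest. The deciles hold only these 12982 genes, which also reached 1 FPKM in both tissues, so some calls are left out. Of the calls among them, 7 of those lower and 1 of those higher fell in the lowest GC decile, and 0 and 7 in the highest. Genes called higher had a median GC content of 51.7% and a median length of 3254 bases, and those called lower 48.3% and 1787 bases, beside 50.2% and 3178 over all genes. Subtracting the trend with GC content changed the log2 ratio of 10 of the 220 called or named genes with an annotated transcript by 0.1 or more. The part of base composition in the authors' calls was not tested.

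**Figure D5:**
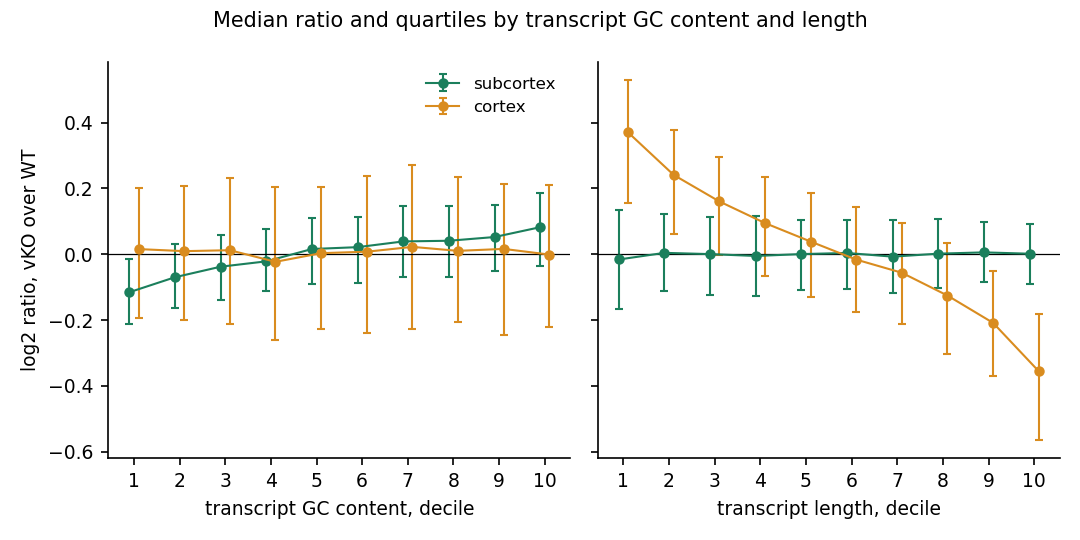
Median log2 ratio of vKO over WT (points) with the lower and upper quartile (bars) in deciles of transcript GC content (left) and transcript length (right), for subcortex and cortex. The subcortex medians climb from -0.12 to 0.08 with GC content and stay near 0 over length, and the cortex medians stay near 0 over GC content and fall from 0.37 to -0.36 with length.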

How the data were processed

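Per the submitters' processing notes, HISAT2 2.0.1, Cufflinks 2.2.1 and Cuffdiff were used with the mm10 build. No source used here names the authors' gene annotation. Per the file headers, each deposited table holds 1 FPKM value per gene and group, the authors' p-value and q-value, and a test statistic, a score that was not used. The authors' log2 column held error text, so ratios were recomputed. The column letters W and M were read as WT and vKO. A Benjamini-Hochberg adjustment of the deposited p-values gave the deposited q-values to within 5.14e-07.

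Log2 ratios with a pseudocount of 1 were computed in Python 3.11.15 (pandas 2.3.3) for entries with status OK and at least 1 FPKM in a group, by code tested on simulated data. With 1 value per group, no test was run. The 38 gene lists (555 members, of which 2 were not found) and the choice of this comparison were made with earlier results of these data known. Named genes are the Wnt7 receptor complex, the 12 highest and 12 lowest ratios, and in each list the 2 members with the highest FPKM and the 2 with the largest ratio. Others were named after their values were seen, among them every called list member outside that rule. Positions, transcript length and GC content come from GENCODE M21 (mm10), using the longest coding transcript, or the longest of any kind for noncoding genes. Near-identical copies were sought with BLAST 2.17.0 at 90% identity over 50% of the shorter transcript. Thresholds, pseudocounts, FPKM minimums and length and GC trends were varied.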

Additional observations from a re-analysis of the deposited data

How the results depend on the processing

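With a q-value under 0.01 in the authors' deposited table no gene is called (0 higher and 0 lower), since the lowest q-value is 0.0104, and with a q-value under 0.1 there are 77 higher and 48 lower. Requiring 1.5-fold as well left 56 and 33, and leaving out small RNAs and sex-linked genes, chosen after seeing the data, left 60 and 31. The counts past 1.5-fold, 165 higher and 130 lower, moved with the pseudocount, to 312 and 245 at 0.1 and to 63 and 78 at 5. With at least 5 FPKM 101 were higher, and with small RNAs left out, also chosen after seeing the data, 76 were lower. Subtracting a running median over transcript length gave 164 and 123, and over GC content, added after seeing the data, 147 and 121. The correlation between tissues ranged from 0.02 to 0.14. No list median moved by 0.1 or more under centring or under the length or GC trend. Medians of 4 lists moved by 0.1 or more with a pseudocount of 0.1, of 1 list with 0.5, of 8 with 5 and of 3 with at least 5 FPKM, and the Wnt7 receptor complex (0.12 to -0.02) and cortical projection neurons (-0.09 to 0.01) changed sign in the last. No paired analysis was possible because the tables hold 1 value per group, and for the same reason no replicate could be left out. The lists of neutrophil, pituitary and olfactory bulb and retina genes had no member with at least 5 FPKM. Depth is unknown, so the precision of low FPKM values cannot be stated.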
